A study of Mus musculus with 16 samples.

Results

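The set examined here is 34 genes of macrophages and Kupffer cells, read in whole liver from 16 mice. They were chosen by name as macrophage markers, but with earlier results of these data known, so counts set against all genes are descriptive only. All 34 were measured among the 19938 genes of the array that carry a single gene symbol, each by 1 probe set. Mice were wild type, labelled Gli1_WT, or carried 1 null copy of the hedgehog transcription factor gene Gli2, labelled Gli2_Het, and were fed control or high-fat chow over 12 weeks. Each of the 4 groups held 4 adult animals with 1 Affymetrix MoGene 1.0 ST array per animal. The wild-type label names Gli1, while the series design speaks of Gli2 only. Strain, sex and exact age were not stated, and no cell type is named to which the null allele was restricted. Below, WT_control, WT_HFD, Het_control and Het_HFD name the groups, and a number after the name marks the animal. The study set attenuated hedgehog signalling against diet-induced fatty liver.

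Kupffer cells are the macrophages that live in the liver sinusoids. They take up particles, pathogens and aged blood cells from portal blood through scavenger, complement and Fc receptors, and much of their signalling passes through adaptor proteins with an ITAM motif. When they are lost, or when the liver is inflamed, monocytes enter from the blood and become macrophages, and in fatty liver some of these take on a lipid-associated state marked by Trem2 and Gpnmb. Hedgehog signalling is known in liver mainly for its part in repair and scarring.

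Values are log2 levels made by the authors with RMA, so a difference of 1 is a doubling. They compare 1 gene between animals and not 1 gene with another. Differences come from 1 limma model over all 16 arrays and all 19938 genes, with Benjamini-Hochberg adjustment over those genes, and a gene is called at an adjusted p under 0.05. In whole liver, fewer macrophages and less RNA per macrophage cannot be told apart. Hepatocyte genes averaged 13.33 to 13.51 over all arrays, as a liver label implies. The Gli2 probe set read 7.57 ± 0.02 (SD, n = 4) in WT_control, 7.70 ± 0.30 in Het_control, 7.51 ± 0.08 in WT_HFD and 7.53 ± 0.07 in Het_HFD. Which exons the null allele lacks was not stated, so this level is no test of the labels. Array Het_control 2 stood apart, with correlations across genes of 0.961 to 0.979 with the other arrays, while the other 15 correlated at 0.991 to 0.998 with each other. Its values spanned a narrower range, 1.95 between quartiles where the rest spanned 2.40 to 2.60. Where leaving it out ended a gene's call, or turned or moved its difference by more than 1.5 times, this is stated beside the gene.

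In Gli2 heterozygotes on the high-fat diet, 12 of the 34 macrophage genes rose and 1 fell. Across all genes 1.5% were called higher and 0.712% lower. The genes that rose were the Fc receptor and Trem adaptors Tyrobp and Fcer1g, the immunoglobulin-family gene Igsf6, the complement chains C1qb and C1qc, the complement receptor Vsig4, the growth factor receptor Csf1r, the lysosomal genes Cd68, Laptm5 and Lyz2, the adhesion receptor gene Adgre1 and the cytokine Il1b. The tetraspanin Cd9 fell. The median difference of the 34 genes was 0.27, against -0.05 over all genes, and 29 of 34 were higher in value, against 40.5% of all genes. Of the 9969 genes at or above the median gene in mean level, 6434 were higher in value and 259 were called higher. Below it these counts were 1649 and 41 of 9969, and 10 of the 34 lay there. For 14 of the 34 the 4 Het_HFD arrays lay above all 4 Het_control arrays, and for 2 they lay below, against 6.58% and 7.15% of all genes. Differences within the set reached from -0.92 for Cd9 to 1.03 for Igsf6.

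**Figure D1:**
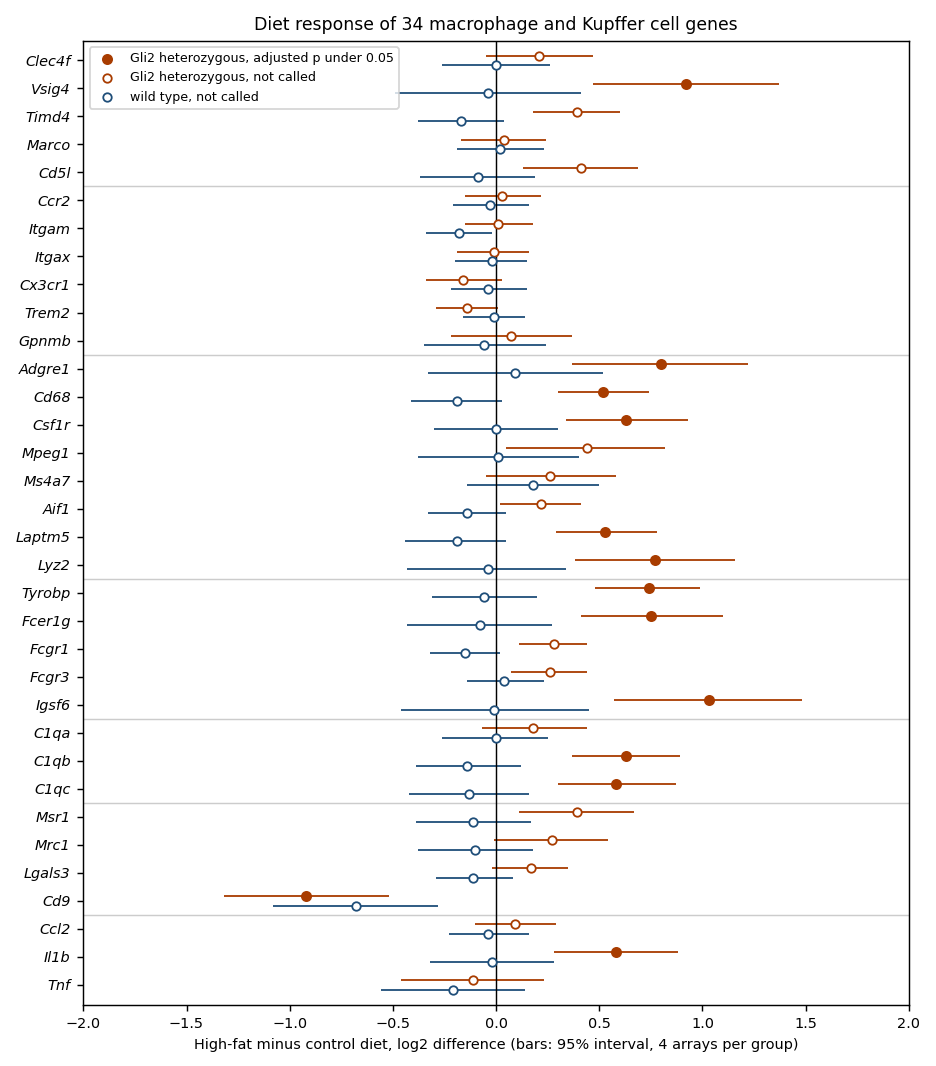
Difference between high-fat and control diet for each of the 34 genes on the log2 scale (x axis), in heterozygotes and in wild type, with points at the limma estimate and bars for the 95% interval, 4 arrays per group. Filled points are called at an adjusted p under 0.05: 12 genes to the right and Cd9 to the left in heterozygotes, and none in wild type. Grey lines separate the roles, from resident genes at the top to cytokines at the bottom.

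These calls depended on the arrays fitted. Without Het_control 2, 5 of the 34 rose (C1qb, Cd68, Igsf6, Tyrobp and Vsig4) and Cd9 fell, against 0.582% of all genes called higher, while the median of the set was 0.26 and that of all genes -0.02. Without Het_HFD 2 or without Het_HFD 3 only Tyrobp was called, where 0.16% and 0.15% of all genes were called higher. Without Het_HFD 1, Het_HFD 4 or Het_control 1 the counts were 3, 2 and 2 genes higher and 0 lower, against 0.421%, 0.16% and 0.662% of all genes. Without Het_control 3 there were 11 higher and 0 lower, against 0.487% of all genes higher. Without Het_control 4 there were 14 higher and 1 lower, in a fit that called 9.37% of all genes higher. Wild-type arrays enter the shared estimate of spread and moved the count as well: leaving out WT_control 1 to 4 in turn gave 4, 4, 7 and 8 genes higher, with 0.416% to 1.03% of all genes called higher. Leaving out WT_HFD 1 to 4 gave 7, 11, 6 and 12, with 0.667% to 1.43% of all genes, and Cd9 was lower in all 8 of these fits. With only the 8 heterozygous arrays fitted, 0 of the 34 were called by limma, where 0.01% of all genes were called higher. In that fit 20 of the 34 had an unadjusted p under 0.05, against 17.3% of all genes. In the fit of all 16 arrays 20 did as well, against 31.6% of all genes. All 13 differences kept their sign under every array left out.

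**Figure D2:**
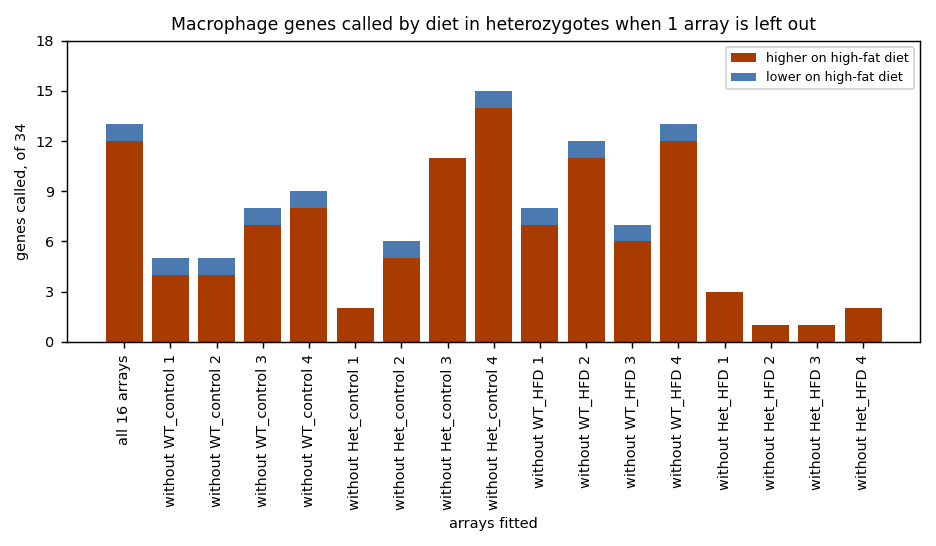
Number of the 34 macrophage genes called by diet in heterozygotes (y axis) with all 16 arrays and with each array left out in turn (x axis), stacked as higher and lower on the high-fat diet. The count is 13 with all arrays and 1 without Het_HFD 2 or without Het_HFD 3.

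Of the resident Kupffer cell genes, 1 of 5 rose in heterozygotes on the high-fat diet, against 1.5% of all genes. All 5 were higher in value, against 40.5% of all genes. Vsig4, a receptor that binds complement C3 fragments on resident macrophages, read 11.10, 10.19, 11.51 and 11.33 in Het_control 1 to 4 and 11.99, 12.06, 11.84 and 11.92 in Het_HFD 1 to 4. The groups did not overlap, and Het_control 2 was the lowest array. The difference was 0.92 (SE 0.21, limma adjusted p = 0.0415), a 1.89-fold change, or 0.64 (adjusted p = 0.0481) without Het_control 2. Its call was lost when any of 11 other arrays was left out: WT_control 1, 2, 3 or 4, Het_control 1, WT_HFD 1 or 3, or any Het_HFD array (adjusted p up to 0.113). Timd4, the phosphatidylserine receptor by which resident Kupffer cells bind dying cells, read 9.0, 8.75, 9.15 and 8.78 on control chow and 9.40, 9.45, 9.22 and 9.17 on high-fat diet. These groups did not overlap, and the difference of 0.39 (95% interval 0.18 to 0.60) did not pass the threshold. Cd5l, a secreted scavenger protein of tissue macrophages, differed by 0.41 (0.13 to 0.69), with overlapping groups. The lectin Clec4f, held to be specific to Kupffer cells in mice, differed by 0.21 (-0.05 to 0.47), and the scavenger receptor Marco by 0.04 (-0.17 to 0.24), or 0.13 without Het_control 2. The median of the 5 was 0.39, or 0.33 without Het_control 2.

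None of the 6 genes of recruited macrophages was called in heterozygotes, by limma at an adjusted or unadjusted p under 0.05, and their median difference was 0.00, or 0.06 without Het_control 2. The chemokine receptor Ccr2, which brings monocytes out of the marrow and into tissue, read 6.21, 6.50, 6.26 and 6.30 on control chow and 6.37, 6.59, 6.25 and 6.19 on high-fat diet. The groups overlapped fully, and the 95% interval of the difference ran from -0.15 to 0.22. For the integrin genes Itgam and Itgax, which encode CD11b and CD11c, it ran from -0.15 to 0.18 and from -0.19 to 0.16. The fractalkine receptor Cx3cr1 differed by -0.16 (-0.34 to 0.03). Trem2, a lipid-sensing receptor that signals through Tyrobp, read 8.78, 9.09, 8.80 and 8.80 in Het_control and 8.75, 8.70, 8.72 and 8.73 in Het_HFD. All 4 high-fat arrays lay below the controls, and the difference was -0.14 (-0.29 to 0.01) and was not called. Gpnmb, a glycoprotein of lipid-loaded macrophages, differed by 0.07 (-0.22 to 0.37). It read 8.30 in Het_HFD 2 and 7.45 to 7.58 in the other 3 arrays of that group, and without Het_HFD 2 the median of the 6 recruited genes was -0.11. Leaving out Het_control 2 instead gave differences of 0.09 for Ccr2, 0.10 for Itgam, 0.02 for Itgax, -0.07 for Cx3cr1, -0.07 for Trem2 and 0.14 for Gpnmb. In mean level over the arrays, 4 of the 6 recruited and 1 of the 5 resident genes lay below the median gene of the array. Genes below that median had a median diet difference of -0.13 in heterozygotes, and those at or above it 0.07. The part of signal level in the different counts of resident and recruited genes was not tested, nor was the difference between the lists.

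**Figure D3:**
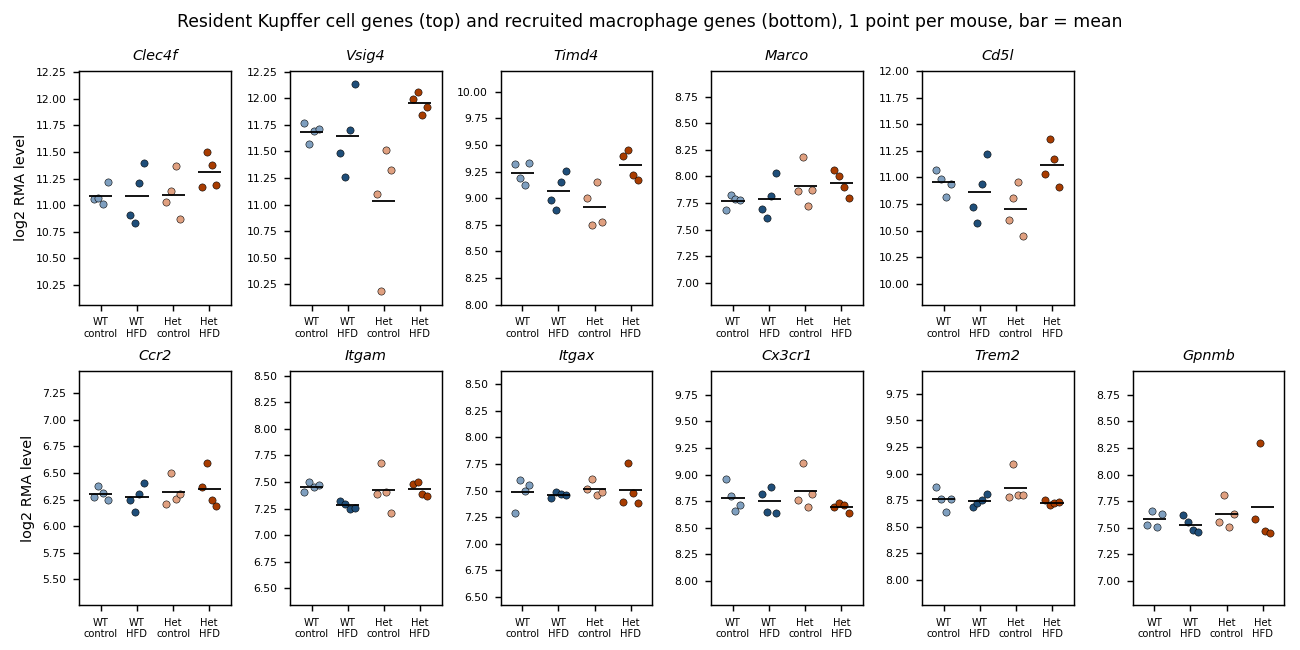
Log2 RMA level (y axis, each panel spanning the same number of log2 units) of the 5 resident Kupffer cell genes and the 6 recruited macrophage genes, with 1 point per mouse and a bar at the mean of each of the 4 groups. Vsig4 and Timd4 are higher in every Het_HFD mouse than in any Het_control mouse, while none of the 6 recruited genes is called and Gpnmb stands high in Het_HFD 2.

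Genes shared by most macrophages included 5 of 8 that rose in heterozygotes, against 1.5% of all genes. All 8 were higher in value, with a median of 0.53, or 0.47 without Het_control 2. Cd68, a lysosomal glycoprotein, read 9.60, 9.55, 9.89 and 9.68 in Het_control and 10.07, 10.48, 10.19 and 10.07 in Het_HFD. Every high-fat array was above every control array, with a difference of 0.52 (SE 0.11, limma adjusted p = 0.0282), or 1.44-fold. Csf1r, the receptor for the growth factors that keep macrophages alive, read 10.16, 9.81, 10.42 and 10.05 against 10.69, 10.95, 10.73 and 10.60. Its difference was 0.63 (adjusted p = 0.0364), again with no overlap. Adgre1, an adhesion receptor that marks mouse macrophages, differed by 0.80 (adjusted p = 0.0492), the lysozyme gene Lyz2 by 0.77 (0.0448) and the lysosomal membrane gene Laptm5 by 0.53 (0.0352), each with all high-fat arrays above all controls. The pore-forming protein gene Mpeg1 (0.44, 95% interval 0.05 to 0.82), the actin-binding Aif1 (0.22, 0.02 to 0.41) and Ms4a7 (0.26, -0.05 to 0.58) were not called. The call of Cd68 was lost without Het_control 1 or without Het_HFD 2, 3 or 4 (adjusted p up to 0.0876). Those of Csf1r, Laptm5, Lyz2 and Adgre1 were lost under 9, 8, 12 and 13 of the 16 arrays left out, among them Het_control 1, Het_control 2, WT_control 1, WT_control 2 and every Het_HFD array, with adjusted p up to 0.113, 0.105, 0.128 and 0.142. Het_control 2 was the lowest of its group for these 5 genes.

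Among the ITAM adaptors, Fc receptors and their partners, 3 of 5 rose, against 1.5% of all genes. Tyrobp, also called DAP12, couples Trem2 and other receptors of myeloid cells to the kinase Syk. It read 9.72, 9.34, 9.99 and 9.75 in Het_control and 10.31, 10.77, 10.40 and 10.27 in Het_HFD. The groups did not overlap, with Het_control 2 lowest and Het_HFD 2 highest. The difference was 0.74 (SE 0.12, limma adjusted p = 0.0118), or 1.66-fold, the smallest p among the 34 genes. Tyrobp alone of the 34 was called under each of the 16 arrays left out (0.61 to 0.83, adjusted p up to 0.0363), though not with the 8 heterozygous arrays fitted alone (adjusted p = 0.129). Its partner adaptor Fcer1g, the gamma chain of the IgE and IgG Fc receptors, differed by 0.75 (adjusted p = 0.0354). It was not called without Het_control 1 or 2, WT_control 1 or 2, or Het_HFD 2, 3 or 4 (adjusted p up to 0.108). Igsf6, a membrane protein of myeloid cells, read 8.58, 7.93, 8.85 and 9.10 in Het_control and 9.61, 10.03, 9.39 and 9.55 in Het_HFD. This difference of 1.03 (SE 0.22, adjusted p = 0.0349), or 2.04-fold, had the largest size of the 34 with all arrays. Without Het_control 2 it was 0.80, and Cd9 at -0.91 was larger in size. Igsf6 lost its call without Het_control 1 or any Het_HFD array (adjusted p up to 0.102). The IgG receptor genes Fcgr1 (0.28, 95% interval 0.11 to 0.44) and Fcgr3 (0.26, 0.07 to 0.44) were not called.

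The C1q complex, which opens the classical complement pathway and is made largely by macrophages, is built from 3 chains. In heterozygotes 2 of the 3 rose, against 1.5% of all genes. C1qb read 11.00, 10.61, 11.23 and 11.06 on control chow and 11.74, 11.76, 11.56 and 11.36 on high-fat diet, with no overlap and a difference of 0.63 (SE 0.12, limma adjusted p = 0.0223). C1qc read 10.35, 9.94, 10.70 and 10.35 against 10.92, 11.18, 10.89 and 10.68, so that Het_control 3 lay above Het_HFD 4, and differed by 0.58 (adjusted p = 0.0422). C1qa differed by 0.18 (95% interval -0.07 to 0.44) and was not called. C1qb lost its call without Het_HFD 1, 2 or 3, where its adjusted p reached 0.0822. That of C1qc held only without Het_control 3, Het_control 4, WT_HFD 2 or WT_HFD 4, with adjusted p up to 0.124 otherwise.

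Promoter sequences are shown for 6 members to set genes that rose together beside a resident and a recruited gene that did not pass. They are the 250 bases before the start site, 5′ to 3′ on the gene's strand, from RefSeq (GRCm38.p6), and 28 of the 34 genes had such a window. Capitals mark the letters GAGGAA, or TTCCTC where the match lies on the opposite strand, a core that PU.1, the transcription factor encoded by Spi1 and required for macrophages, is known to bind.
C1qb, chr4:136886201-136886450, minus strand: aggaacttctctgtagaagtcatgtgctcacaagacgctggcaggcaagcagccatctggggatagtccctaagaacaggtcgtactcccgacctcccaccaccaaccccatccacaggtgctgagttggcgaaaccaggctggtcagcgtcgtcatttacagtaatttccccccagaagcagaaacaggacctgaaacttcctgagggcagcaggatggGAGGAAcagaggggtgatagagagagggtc
C1qc, chr4:136892915-136893164, minus strand: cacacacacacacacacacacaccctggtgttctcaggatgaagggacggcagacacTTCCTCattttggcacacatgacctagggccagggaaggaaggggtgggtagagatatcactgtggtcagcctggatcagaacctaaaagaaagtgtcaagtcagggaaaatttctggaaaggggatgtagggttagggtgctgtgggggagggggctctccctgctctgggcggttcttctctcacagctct
Igsf6, chr7:121074531-121074780, minus strand: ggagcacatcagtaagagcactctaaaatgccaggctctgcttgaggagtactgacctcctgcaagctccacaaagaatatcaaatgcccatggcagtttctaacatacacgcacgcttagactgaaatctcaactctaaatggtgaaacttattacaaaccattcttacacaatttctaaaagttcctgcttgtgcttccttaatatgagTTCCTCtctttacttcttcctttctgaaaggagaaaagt
Vsig4, chrX:96293439-96293688, minus strand: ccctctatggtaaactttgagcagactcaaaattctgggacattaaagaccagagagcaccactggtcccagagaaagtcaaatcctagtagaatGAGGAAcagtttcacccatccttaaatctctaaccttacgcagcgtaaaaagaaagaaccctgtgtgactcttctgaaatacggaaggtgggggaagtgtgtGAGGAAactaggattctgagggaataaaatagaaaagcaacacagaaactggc
Clec4f, chr6:83656117-83656366, minus strand: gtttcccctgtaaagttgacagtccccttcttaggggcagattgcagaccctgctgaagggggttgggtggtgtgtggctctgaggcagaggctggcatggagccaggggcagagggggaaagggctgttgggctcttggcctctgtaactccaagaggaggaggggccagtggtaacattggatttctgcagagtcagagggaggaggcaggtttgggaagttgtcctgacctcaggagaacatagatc
Trem2, chr17:48346151-48346400, plus strand: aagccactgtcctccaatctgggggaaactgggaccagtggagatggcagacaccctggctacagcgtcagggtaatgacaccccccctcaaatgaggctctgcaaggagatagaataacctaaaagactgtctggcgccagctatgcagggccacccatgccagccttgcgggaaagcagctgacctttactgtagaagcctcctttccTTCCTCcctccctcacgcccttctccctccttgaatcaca

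The match begins 30 bases before the start site in C1qb, 39 in Igsf6, 40 in Trem2 and 193 in C1qc, and at 155 and 53 in Vsig4. Clec4f holds none in this window. Searched on both strands, GAGGAA was found in 16 of 30 windows of the macrophage genes (53.3%) and in 23.3% of all 32851 windows. By gene, it was in 6 of the 9 called higher in heterozygotes that had a window and in 9 of the 18 not called. Fcer1g, Il1b and Lyz2 were called higher but have windows without a match, and these are not shown. GAGGAA was present in 3 of 5 resident genes, all but Clec4f and Timd4, and in 2 of 6 recruited genes. A match describes these letters only and is not a binding site.

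Cd9, a tetraspanin found on macrophages and on many other cells, went the other way. It read 9.91, 9.50, 9.66 and 8.79 in Het_control and 8.54, 8.63, 8.39 and 8.62 in Het_HFD. All 4 high-fat arrays were below all controls, with Het_control 4 the lowest control, and the difference was -0.92 (SE 0.19, limma adjusted p = 0.0315). In wild type it read 9.46, 9.36, 8.99 and 9.54 on control chow and 8.91, 8.86, 8.35 and 8.52 on high-fat diet. Those groups did not overlap either, and the difference was -0.68 (95% interval -1.08 to -0.28, adjusted p = 0.395). Averaged over genotypes Cd9 fell by 0.80 on the log2 scale (SE 0.13, adjusted p = 0.0116), the 1 call among the 34 genes in that comparison, where 0.512% of all genes were called lower and 1.35% higher. This call held under each of the 16 arrays left out (adjusted p up to 0.0336). The call within heterozygotes was lost without Het_control 1, Het_control 3 or any Het_HFD array (adjusted p up to 0.0763). The scavenger receptor Msr1 (0.39, 95% interval 0.11 to 0.67), the mannose receptor Mrc1 (0.27, -0.01 to 0.54, or 0.14 without Het_control 2) and the galectin gene Lgals3 (0.17, -0.02 to 0.35) were not called in heterozygotes.

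Of the inflammatory cytokines 1 of 3 rose in heterozygotes, against 1.5% of all genes. Il1b, which encodes interleukin 1 beta, read 8.06, 7.84, 7.98 and 7.63 in Het_control and 8.28, 8.26, 8.45 and 8.83 in Het_HFD. The groups did not overlap and differed by 0.58 (SE 0.14, limma adjusted p = 0.0468), or 1.49-fold. This call was lost without any of 13 arrays, all but Het_control 4, WT_control 4 and WT_HFD 4 (adjusted p up to 0.131). The monocyte chemoattractant gene Ccl2 differed by 0.09 (95% interval -0.10 to 0.29) and the tumour necrosis factor gene Tnf by -0.11 (-0.46 to 0.23). Without Het_control 2 these were 0.15 and 0.10, so that the sign for Tnf turned. Tnf read 8.59 in Het_control 2 and 7.64 to 7.80 in the other 3 arrays of that group.

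In wild-type mice none of the 34 genes was called by diet, and 0.0% of all genes were called in either direction. By limma at an unadjusted p under 0.05, 2 of the 34 passed, Cd9 and Itgam, against 6.43% of all genes. The median of the 34 was -0.05 and that of all genes -0.01, and 5 of the 34 were higher in value, against 44.0% of all genes. For 0 of the 34 the WT_HFD arrays lay above all WT_control arrays and for 2 below, against 3.51% and 5.0% of all genes. Itgam read 7.41, 7.50, 7.45 and 7.47 on control chow and 7.32, 7.29, 7.25 and 7.26 on high-fat diet, with no overlap, a difference of -0.18 (95% interval -0.34 to -0.02) and an adjusted p of 0.740. Tyrobp differed by -0.06 (-0.31 to 0.20), C1qb by -0.14 (-0.39 to 0.12) and Vsig4 by -0.04 (-0.49 to 0.41). Fcgr1 (-0.15, adjusted p = 0.828), Cd68 (-0.19, adjusted p = 0.845) and Laptm5 (-0.19, adjusted p = 0.862) came next by p. Within WT_HFD the animals spread widely: Adgre1 read 9.59, 9.41, 9.85 and 10.54, and WT_HFD 4 was also highest of its group for Vsig4, Lyz2, Csf1r and Igsf6. The median of the resident genes was -0.04, or -0.20 without WT_HFD 4.

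On control diet none of the 34 was called by genotype, with 0.0% of all genes called in either direction. By limma 14 of the 34 had an unadjusted p under 0.05, against 15.7% of all genes. The median of the 34 was -0.15 in heterozygotes relative to wild type, while that of all genes was 0.04, and 13 of the 34 were higher in value, against 60.6%. Without Het_control 2 the medians were -0.15 and 0.01, and 8 of the 34 were higher in value. With all arrays, 3870 of 9969 genes at or above the median gene in mean level were higher in value. Below it 8220 of 9969 were. Of the 34, 10 lay below it, and the part of signal level in these counts was not tested. Cd68 differed by -0.38 (SE 0.11, adjusted p = 0.279), with 9.60, 9.55, 9.89 and 9.68 in Het_control below 10.10, 10.01, 9.95 and 10.17 in WT_control. Igsf6 (-0.68), Vsig4 (-0.65) and Laptm5 (-0.36) also had all 4 heterozygous arrays below all wild-type ones, so that 4 of the 34 did, against 2.1% of all genes, and 0 lay above, against 4.03%. Without Het_control 2 Igsf6 differed by -0.45, Vsig4 by -0.37 and Laptm5 by -0.28. Tyrobp (-0.39, 95% interval -0.65 to -0.14) and Timd4 (-0.32, -0.53 to -0.11) overlapped between genotypes. Resident genes had a median of -0.25 and recruited genes of 0.04, or -0.26 and -0.02 without Het_control 2. The diet comparison in heterozygotes uses the same Het_control arrays, so the lower values here and the rises there are not independent.

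On the high-fat diet none of the 34 was called by genotype, where 0.00502% of all genes were called higher and 0.0% lower. In value 31 of the 34 were higher in heterozygotes, against 53.8% of all genes, with a median of 0.23 against 0.01. By limma 12 of the 34 had an unadjusted p under 0.05, against 3.57% of all genes. Il1b had the smallest p, with 8.28, 8.26, 8.45 and 8.83 in Het_HFD above 7.74, 7.71, 7.83 and 8.05 in WT_HFD, and a difference of 0.62 (SE 0.14, adjusted p = 0.628). Tyrobp read 10.31, 10.77, 10.40 and 10.27 in Het_HFD above 10.02, 9.94, 10.09 and 10.09 in WT_HFD, a difference of 0.40 (95% interval 0.15 to 0.66, adjusted p = 0.873). C1qb differed by 0.41 (0.16 to 0.67), Cd68 by 0.33 (0.11 to 0.55) and Laptm5 by 0.36 (0.12 to 0.61). In 8 of the 34 all heterozygous arrays lay above all wild-type arrays, and in 0 below, against 2.18% and 1.57% of all genes. These were Il1b, Tyrobp, C1qb, Laptm5, Fcer1g, Fcgr3, Lgals3 and Itgam. Het_control 2 is not among these arrays, but it enters the shared estimate of spread.

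The diet responses of the genotypes were set against each other in the interaction, and none of the 34 passed, with 0.0% of all genes called in either direction. By limma 18 of the 34 had an unadjusted p under 0.05, against 8.13% of all genes, and 31 of 34 interaction values were above 0, against 42.5%. They were above 0 in 6054 of 9969 genes at or above the median gene in mean level, and in 2416 of 9969 below it. The response was larger in heterozygotes by 0.71 for Cd68 (SE 0.15, adjusted p = 0.240), by 0.79 for Tyrobp (95% interval 0.43 to 1.16, adjusted p = 0.240), by 0.77 for C1qb (0.40 to 1.13, adjusted p = 0.248), by 0.73 for Laptm5 and by 0.56 for Timd4. The median of the 34 was 0.40, or 0.36 without Het_control 2. These responses are thus not shown to differ by genotype, although 13 of the genes were called in 1 genotype and not in the other. Averaged over genotypes, 28 of the 34 were higher in value (40.4% of all genes) and 13 had an unadjusted p under 0.05 (26.9%). Of genes at or above the median gene in mean level 6506 of 9969 were higher in value, and of those below it 1543. Tyrobp differed by 0.34 (95% interval 0.16 to 0.52, adjusted p = 0.0524) and was called without Het_control 2, 3 or 4 (adjusted p down to 0.0312). Igsf6 (0.51, adjusted p = 0.0843) was called without Het_control 4 (adjusted p = 0.0248).

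**Figure D4:**
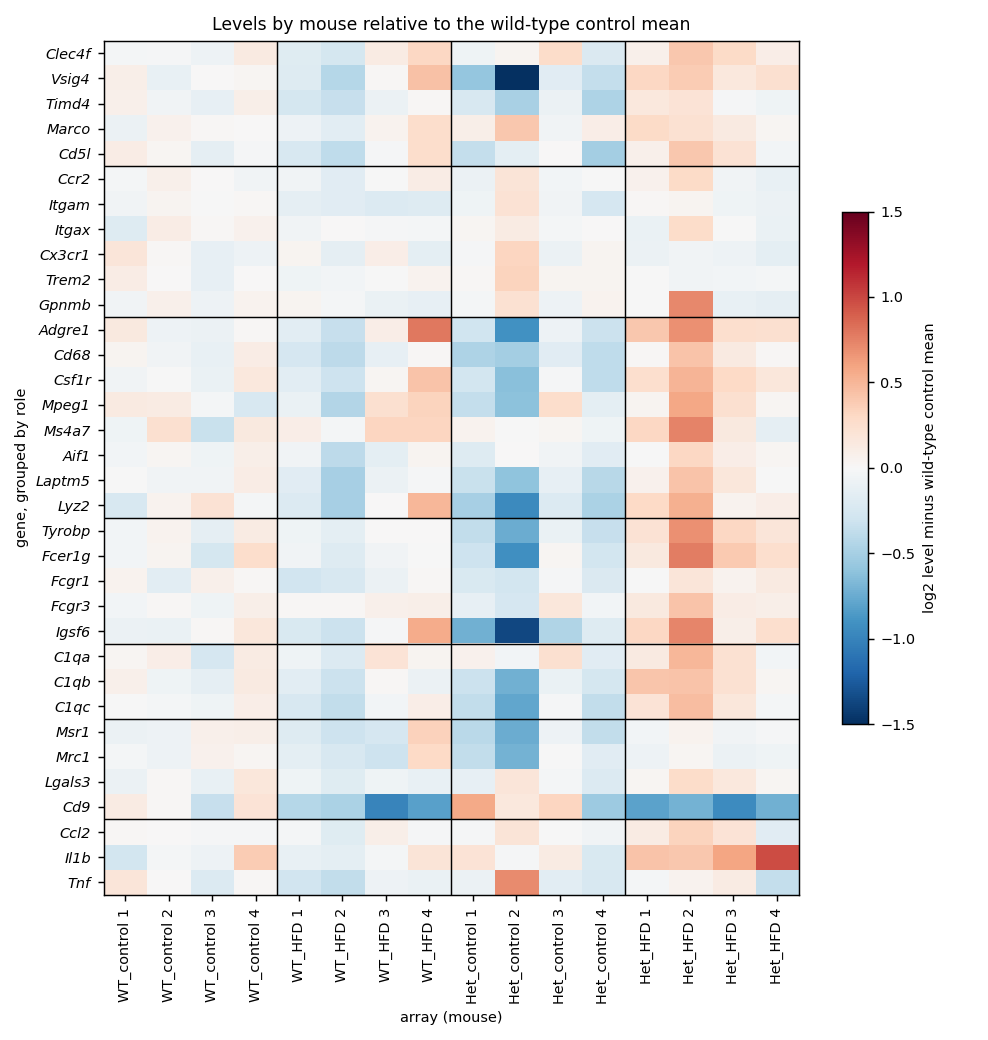
Level of each of the 34 genes (rows, grouped by role) in each of the 16 mice (columns) as the log2 difference from the WT_control mean. Het_control 2 is lowest for Vsig4 and Igsf6, Het_HFD 2 is above the WT_control mean for 31 of the 34 genes, and Cd9 is low in all 8 mice on the high-fat diet.

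Animals within a group also differed. Relative to the WT_control mean, the median deviation of the 34 genes was 0.41 in Het_HFD 2 and 0.01 to 0.13 in the other 3 arrays of its group, -0.25 in WT_HFD 2 and 0.05 in WT_HFD 4. After each group's mean was taken off, the 561 pairs among the 34 genes had a median Pearson's r of 0.38 over 16 arrays, from -0.68 to 0.97, and of 0.51 over 15 without Het_control 2. The pairs among the 12 genes that rose in heterozygotes had a median Pearson's r of 0.78 (Spearman 0.72) over 16 arrays, or 0.72 (Spearman 0.67) over 15 without Het_control 2. Tyrobp and Fcer1g had an r of 0.97, or 0.95 without it. The 10 pairs of resident genes had a median r of 0.43 with all arrays and 0.72 without Het_control 2, and the 15 pairs of recruited genes 0.44 and 0.16. These values describe how the probe sets vary over shared arrays, which also share their normalization, and carry no test.

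Other genes of myeloid cells, from lists that hold none of the 34, included more that rose in heterozygotes. These lists too were chosen with earlier results of these data known. Across all genes 1.5% were called higher, or 0.582% without Het_control 2. Of 15 Toll-like receptors and co-receptors 4 rose, and 3 did so in the fit leaving out Het_control 2. Their median was 0.38 and 0.30 in these fits. Among them the lipopolysaccharide co-receptor gene Ly96 differed by 2.04 (SE 0.45, limma adjusted p = 0.0368), or 1.40 without Het_control 2, and Cd180, which restrains Toll signalling, by 0.78 (adjusted p = 0.0354). Of 14 growth factor and transcription factor genes of macrophages 2 rose, or 1 without Het_control 2: the PU.1 gene Spi1 (0.54, adjusted p = 0.0352, or 0.48 and 0.0621 without it) and the liver X receptor gene Nr1h3 (0.38, adjusted p = 0.0352). Of 16 further receptors and kinases with ITAM or ITIM links 2 rose, the IgG receptor gene Fcgr4 (0.75, adjusted p = 0.0154) and the beta-glucan receptor gene Clec7a (0.57, adjusted p = 0.0488, or 0.0797 without Het_control 2). Chemokine and receptor genes gave 2 of 16, Cxcl10 (0.92) and Ccl6 (0.40), both called without Het_control 2 as well. Of 16 lipid-associated and lysosomal genes 0 were called by limma. An unadjusted p under 0.05 was found for 6 of the 16, near the share of 31.6% of all genes. Among the 16, the protease gene Ctsb differed by 0.32 (limma adjusted p = 0.0723), or 0.20 without Het_control 2. The lipoprotein lipase gene Lpl differed by 0.38 (adjusted p = 0.0936).

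Markers of other cells moved in part with the macrophage genes. By diet in heterozygotes, 1.5% of all genes were called higher, 0.712% were called lower and 40.5% were higher in value. At these shares a short list without a call is not set apart from all genes. All 12 pan-leukocyte genes were higher in value in heterozygotes on the high-fat diet, with a median of 0.29, and 1, Lcp1 (0.46, limma adjusted p = 0.0455), was called, or none without Het_control 2. Their mean level was 8.48 to 8.66 in Het_control and 8.68 to 9.06 in Het_HFD, against 8.65 to 8.71 in WT_control and 8.46 to 8.79 in WT_HFD. Sinusoidal endothelial genes were higher in value in 10 of 12, and 0 of the 12 were called. Their median was 0.24, and 0.14 if Het_control 2 was left out. Their mean level was 9.83 to 10.39 in Het_control and 10.26 to 10.38 in Het_HFD. In WT_control it was 10.38 to 10.51 and in WT_HFD 10.10 to 10.41. Classical monocyte genes (median -0.08), neutrophil genes (-0.13), dendritic cell genes (-0.07), T and NK cell genes (-0.03) and B cell genes (0.04) had no called member. Without Het_control 2 these medians were -0.03, -0.02, 0.00, 0.09 and 0.09, so that the sign for T and NK cell genes turned. Neutrophil genes were higher in value in 1 of 12 with it and in 4 of 12 without it. Of 12 stellate cell genes 1 rose, the retinol-esterifying Lrat (0.96, adjusted p = 0.0465, or 0.0886 without Het_control 2). The median of the 12 was 0.05, or 0.00 without Het_control 2, and 7 were higher in value. For 4 of the 12 all Het_HFD arrays lay below all Het_control arrays, and for 1 above, against 7.15% and 6.58% of all genes. Bile duct and erythroid genes had medians of -0.25 and -0.16, and hepatocyte genes of 0.00, with no call. Without Het_control 2 these were -0.19, -0.07 and -0.04. The part of leukocyte and endothelial content in the macrophage result was not tested.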

How the data were processed

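RNA from 16 livers was hybridised to 1 array each. The authors deposited log2 values from the RMA method, and the submitters' processing notes name Affymetrix Expression Console (versions not given in the sources used here), so background and quantile normalization were already applied, which can hide a change shared by all genes. Of 35556 probe sets, 21789 carried 1 gene symbol, 1621 several and 12146 none. The probe set with the highest mean was kept per gene, giving 19938 genes, of which 19855 matched RefSeq. All 16 arrays entered 1 limma (3.58.1, R 4.3.3) model with 4 groups, 12 residual and 4.88 prior degrees of freedom. It was tested on simulated data with independent genes and the same spread for a gene in all groups. Those data held no odd array like Het_control 2, so that test does not cover the dependence on single arrays. The members and the lists were chosen with earlier results of these data known. All 34 members are named with levels. Test values are given for called members or, where under 5 were called, the 5 with the smallest p, and for up to 2 genes of each other list. Of the other lists, 17 genes were not analysed here. Animals were taken as replicates, and 4 per group limits precision. Alternatives were each array left out, only the groups compared, a mean-variance trend, robust variances, array weights, repeated quantile normalization, bright genes only (mean over 8.016), the mean of probe sets, all probe sets, and title number as a random block.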

Additional observations from a re-analysis of the deposited data

Results flagged for a closer look

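Within the 136 sets of 4 arrays formed by 34 genes and 4 groups, 3 held an array far from the other 3, where chance flags about 1 in 20. Trem2 read 9.09 in Het_control 2 and 8.78 to 8.80 in the other Het_control arrays. Gpnmb read 8.30 in Het_HFD 2 and 7.45 to 7.58 in the rest of that group. Fcgr3, an IgG receptor gene, read 9.52 in Het_HFD 2 against 9.17 to 9.23.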

How the results depend on the processing

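The count of macrophage genes called by diet in heterozygotes was 13, and ran from 1 to 15 with 1 array left out. It was 0 with only the groups compared, where 0.01% of all genes were called higher. It was 1 with all probe sets tested, where 0.152% of all probe sets were called higher. With title number as a random block it was 21, with 19 higher and 2 lower. That fit called 2896 of the 19938 genes higher (14.5%) and 4042 lower. The count averaged over genotypes was 1, where 1.35% of all genes were called higher and 0.512% lower. It was 1 to 3 with 1 array left out, 3 with array weights, 2 among bright genes and 11 with the title number block. The shares of all genes in these other fits are not given here, so their counts are no result about the members. Among bright genes the median of the members was 0.41 by diet in heterozygotes and -0.32 by genotype on control diet. For the 2 recruited genes among the bright ones, Cx3cr1 and Trem2, it was -0.15 by diet in heterozygotes and -0.12 in the interaction. Without Het_control 2 each of these 2 genes differed by -0.07 by diet in heterozygotes. Over all 6 recruited genes the median ran from -0.11 to 0.06 and from -0.07 to 0.08 with 1 array left out. The resident median by diet in wild type ran from -0.20 to 0.08 with 1 array left out. No value changed sign past the threshold. Of the values for named genes 797 kept their side of it, 129 lost it and 11 gained it. The 797 include many values of results that were never called, so they do not measure how stable the calls were. All 129 losses fell on the 13 genes called by diet in heterozygotes. The cause was not tested. Arrays sharing a title number had a consensus correlation of -0.372, and what the number marks was not stated. No paired analysis was possible because the groups compared share at most 1 title number (1 in wild type by diet, 0 in the others) and the labels carry no other replicate number. No measure of signal over background was used here.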
